A study of Mus musculus with 6 samples.

Results

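Glycolysis and glucose uptake were followed gene by gene in IEC 4.1, a mouse line that its label calls intestinal epithelium, after interferon-gamma (IFN-gamma). Of these genes 48 were taken by annotation, as the rows whose KEGG pathway entries include glycolysis and gluconeogenesis, and 4 were added by name with earlier results of these data known, the glucose transporters Slc2a1 and Slc2a3, the regulatory kinase gene Pfkfb3 and the lactate exporter gene Slc16a3. They make 52 of 14701 genes. The groups were 3 samples given 10 ng/ml IFN-gamma for 6 h (replicates 1, 2 and 4) and 3 samples without the cytokine (replicates 2, 3 and 4), both grown to the same confluence before the RNA was taken, per the labels. Total RNA was extracted with a column kit, and protein and metabolites were not measured here. Values are listed in the order of those replicate numbers. The labels do not say whether replicates were separate cultures, so the p-values measure the spread between these samples, which may be technical.

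Glycolysis breaks glucose down to pyruvate in the cytosol and yields ATP without oxygen. Glucose enters through facilitative transporters of the Slc2a family, is trapped by hexokinase, and is committed to breakdown by phosphofructokinase. Pyruvate is then turned into lactate, which leaves through monocarboxylate transporters, or enters mitochondria through pyruvate dehydrogenase. Many of these enzymes exist as isozymes from separate genes, and transport, hexokinase and phosphofructokinase are the steps where control of the pathway is usually placed. IFN-gamma signals through the kinases Jak1 and Jak2, and glycolysis is a known part of the response of macrophages to it. Transcription factors known to act on glycolytic genes in other settings include hypoxia-inducible factor 1 (HIF-1), whose core site reads ACGTG or GCGTG, and Myc, which binds CACGTG.

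Depth was even, at 17490689 to 18678543 estimated counts per library. Cell identity did not follow the label: of 12 epithelial marker genes 8 were in the tables, none of them passed the filter on low counts, and their TPM, a transcript level scaled for gene length and library, summed to 0.55 to 0.7 in IFN-gamma libraries and 0.72 to 1.14 in controls. Of 10 mesenchymal markers 9 were present, and they summed to 3923 to 4124 TPM with IFN-gamma and 3880 to 4039 TPM in controls, most of it Vim. That sum hides opposite changes: of 8 tested mesenchymal markers 2 rose (Vim 0.30, Dcn 0.87 in log2) and 5 fell (Col1a1 -0.33, Col1a2 -0.20, Col3a1 -0.42, Pdgfra -0.65, Pdgfrb -0.60). Leukocyte markers (4 of 11 present) summed to 23.3 to 24.4 TPM with IFN-gamma and 26.6 to 31.8 TPM in controls, and endothelial markers (3 of 5 present) to at most 0.27 TPM in any library. The highest value of a single leukocyte marker in any library was 28.3 TPM, so 1 gene held most of the sum there. The part that these marker changes have in the results was not tested.

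Among the members that rose most, Slc2a1, Hk2, Slc16a3 and Eno2 stand at uptake, trapping, lactate export and the enolase step, and the 250 bases before their annotated transcription starts are shown to compare them. The windows are from RefSeq on GRCm38.p6, at chr4:119108495-119108744 (plus strand), chr6:82774455-82774704 (minus strand), chr11:120948817-120949066 (plus strand) and chr6:124769674-124769923 (minus strand), each read 5′ to 3′ on the gene's strand. Capitals mark ACGTG or GCGTG on either strand, so that a copy on the other strand reads CACGT or CACGC.
Slc2a1: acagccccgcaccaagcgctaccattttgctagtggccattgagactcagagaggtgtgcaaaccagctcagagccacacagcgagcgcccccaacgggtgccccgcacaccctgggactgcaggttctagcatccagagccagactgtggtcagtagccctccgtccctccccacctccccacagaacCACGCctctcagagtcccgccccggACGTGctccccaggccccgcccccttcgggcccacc
Hk2: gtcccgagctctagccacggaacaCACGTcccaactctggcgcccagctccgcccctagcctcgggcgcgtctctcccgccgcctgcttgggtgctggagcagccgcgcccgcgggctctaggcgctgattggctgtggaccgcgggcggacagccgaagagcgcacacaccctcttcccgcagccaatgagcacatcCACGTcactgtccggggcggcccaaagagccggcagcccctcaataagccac
Slc16a3: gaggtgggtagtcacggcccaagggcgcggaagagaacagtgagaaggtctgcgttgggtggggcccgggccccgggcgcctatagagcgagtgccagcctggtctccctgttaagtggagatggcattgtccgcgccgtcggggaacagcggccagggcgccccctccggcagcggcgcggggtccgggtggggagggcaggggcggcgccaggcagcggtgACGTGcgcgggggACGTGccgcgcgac
Eno2: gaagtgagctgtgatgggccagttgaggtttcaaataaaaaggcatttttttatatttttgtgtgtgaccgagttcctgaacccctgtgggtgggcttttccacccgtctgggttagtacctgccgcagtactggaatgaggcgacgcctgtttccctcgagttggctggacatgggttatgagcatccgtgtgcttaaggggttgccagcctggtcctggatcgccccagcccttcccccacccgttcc
Slc2a1, Hk2 and Slc16a3 had 2 copies each in the window, and Eno2 had 0. Of the 52 members 45 had a window in the table, and Slc2a3, which also rose, was not among them. A copy was present in 12 of the 15 risen members with a window (80%), in 18 of 24 tested members that did not rise (75%), and in 62.7% of 9156 tested genes with a window. CACGTG, which contains ACGTG, was in 1 of the 15 and 4 of the 24, against 10.1% of tested genes. A further pattern that was searched, TTCNNNGAA (N for any base), was in 0 of the 15 and 3 of the 24, against 7.28% of tested genes. Both strands were searched, and a match describes letters in this window and not a site in use.

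With IFN-gamma the rises of at least 0.5 in log2 fell on glucose uptake, hexokinase, the minor enolase gene Eno2 and lactate export, and the other members changed less or were not called. Hk2 rose 4.03-fold, Eno2 1.91-fold, Slc2a3 1.89-fold, Slc2a1 1.74-fold, Slc16a3 1.69-fold and Hk1 1.53-fold, whereas Gpi1, Eno1 and Pkm were not called. Of the 52 members 45 had enough reads to test, each with at least 54 counts in every library. By edgeR's quasi-likelihood test at an adjusted p under 0.05, 16 rose and 4 fell. That is 35.6% risen and 8.89% fallen, against 19.9% risen and 18.1% fallen of all 11423 genes tested. Without the 4 added genes 13 of 41 rose (31.7%) and 4 fell (9.76%). Of those 41 genes 3 rose by at least 0.5 in log2, beside 7.82% of all tested genes. The uptake and lactate export steps consist of added genes alone (Slc2a1, Slc2a3 and Slc16a3), which were chosen with earlier results known. The split depends on the scaling: with upper-quartile factors 13 members rose and 7 fell, and with total counts 13 rose and 9 fell, where all genes counted 1775 risen and 2823 fallen, and 1644 risen and 3124 fallen. The median log2 fold change was 0.02 over the tested members and 0.01 over all tested genes. A rise of at least 0.5 on the log2 scale was called for 6 members (against 7.82% of all tested genes) and a fall of that size for 1 (against 4.67%). In 16 members every IFN-gamma library was above every control, and in 6 every one was below, where 24.7% and 23.3% of all tested genes were separated in these directions.

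**Figure D1:**
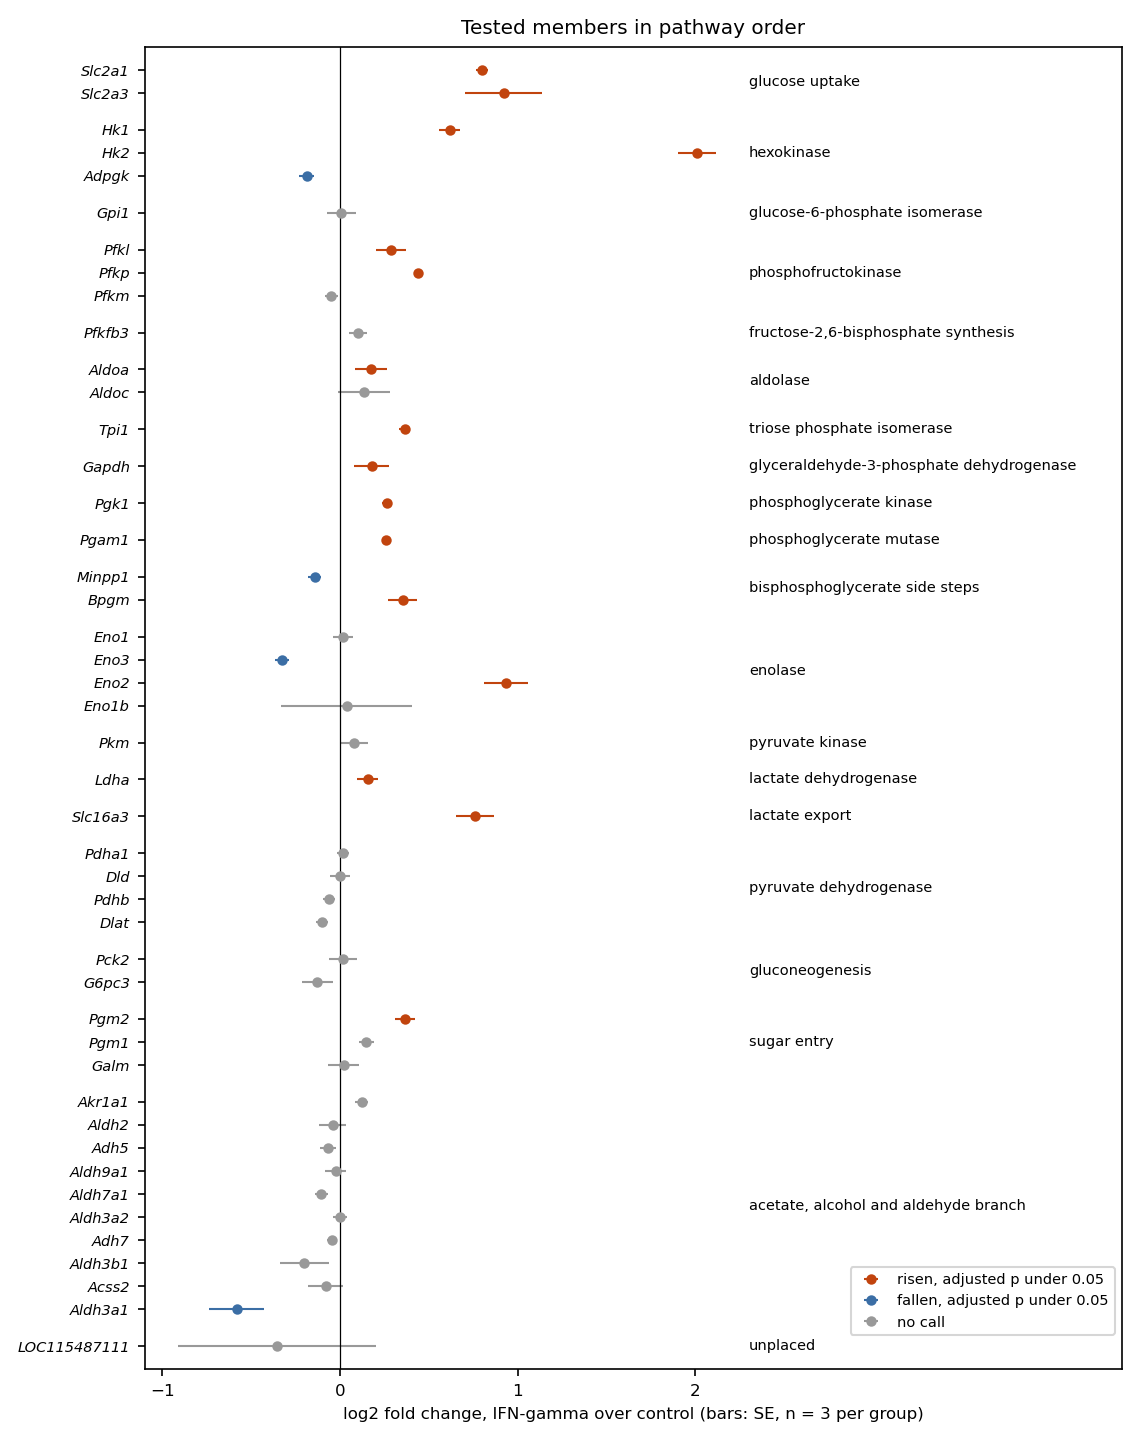
Log2 fold change of the 45 tested members, IFN-gamma over control, in pathway order from uptake at the top; bars are standard errors of log2 CPM (n = 3 per group). Hk2 stands at 2.01, the other 5 rises of at least 0.5 belong to transport, Hk1 and Eno2, and Gpi1, Eno1 and the pyruvate dehydrogenase genes lie near 0.

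Most calls, 18 of 20, sat between uptake and lactate export, where 25 of the 45 tested members lay. Of those 25 (31 before the filter) 15 rose (60%) and 3 fell (12%), with a median log2 fold change of 0.18. Of all tested genes 19.9% rose and 18.1% fell. The risen include Slc2a1, Slc2a3 and Slc16a3, added with earlier results known. Separated libraries numbered 13 higher and 3 lower, where 24.7% and 23.3% of all tested genes were separated. Of the 4 pyruvate dehydrogenase genes 0 were called by edgeR (0 at an unadjusted p under 0.05, and 0 by DESeq2 or limma-voom), and of 10 tested genes of the acetate, alcohol and aldehyde branch 0 rose and 1 fell by all 3 tools, with 1 higher at an unadjusted p under 0.05. Both sections stand beside the same 19.9% risen and 18.1% fallen of all tested genes. Other scalings called more falls in both sections, as given with their genes. Whether these sections differ from each other was not tested.

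Both glucose transporters rose. Slc2a1 (Gene ID 20525), the ubiquitous transporter GLUT1, had 259, 248 and 244 CPM in the IFN-gamma libraries, against 147, 139 and 144 CPM in the controls (counts scaled to a fixed effective library size). The groups were far apart, with a log2 fold change of 0.80 ± 0.034 (SE of log2 CPM) and adjusted p = 2.89e-11. Slc2a3, the high-affinity transporter GLUT3, had 9.68, 9.96 and 7.53 CPM in the IFN-gamma libraries, against 3.72, 4.95 and 5.7 CPM in the controls. It too was higher in each IFN-gamma library, by 0.92 ± 0.22 in log2 (adjusted p = 2.63e-05), but at a much lower level. On the length-scaled TPM scale Slc2a1 held 97.8% of the pair's transcripts with IFN-gamma and 98% in controls. In bulk RNA a higher level per cell cannot be told apart from a larger share of cells that express the gene.

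The hexokinase step changed in amount and in make-up. Hk2 (Gene ID 15277), the inducible mitochondria-bound hexokinase, had 131, 135 and 117 CPM in the IFN-gamma libraries, against 28.4, 31.5 and 34.98 CPM in the controls. No IFN-gamma library came near a control library, and the log2 fold change of 2.01 ± 0.11 (adjusted p = 1.31e-15) was exceeded by 1.97% of tested genes. Hk1, the widely expressed hexokinase, had 295, 297 and 274 CPM in the IFN-gamma libraries, against 199.9, 186 and 179 CPM in the controls, a rise of 0.62 ± 0.06 (adjusted p = 8.21e-09). Adpgk, an ADP-dependent glucokinase, had 44.3, 46.5 and 47.4 CPM in the IFN-gamma libraries, against 50.6, 54.3 and 52.4 CPM in the controls. The fall was small, -0.19 ± 0.041 in log2 (adjusted p = 0.0164), and the call was lost without IFN-gamma replicate 1 (adjusted p = 0.0583) and without control replicate 3 (adjusted p = 0.0559), in a range of 0.00149 to 0.163 over the alternatives. Hkdc1, a putative hexokinase, had 6 counts summed over the IFN-gamma libraries and 2 over the controls, too few to test.

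In TPM, which can be compared between genes, Hk2 made 19.8 ± 0.59% of the step's transcripts with IFN-gamma and 7.52 ± 0.93% in controls (mean ± SD, n = 3 each). Adpgk made 17.1 ± 1.08% with IFN-gamma and 29.5 ± 1.37% in controls. For Hk1 the share was 63.1 ± 0.62% with IFN-gamma and 62.9 ± 2.17% in controls, and the libraries overlapped. Hk1 was the most abundant gene of the step in every library, and Hk2 passed Adpgk in each IFN-gamma library while lying under it in each control.

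**Figure D2:**
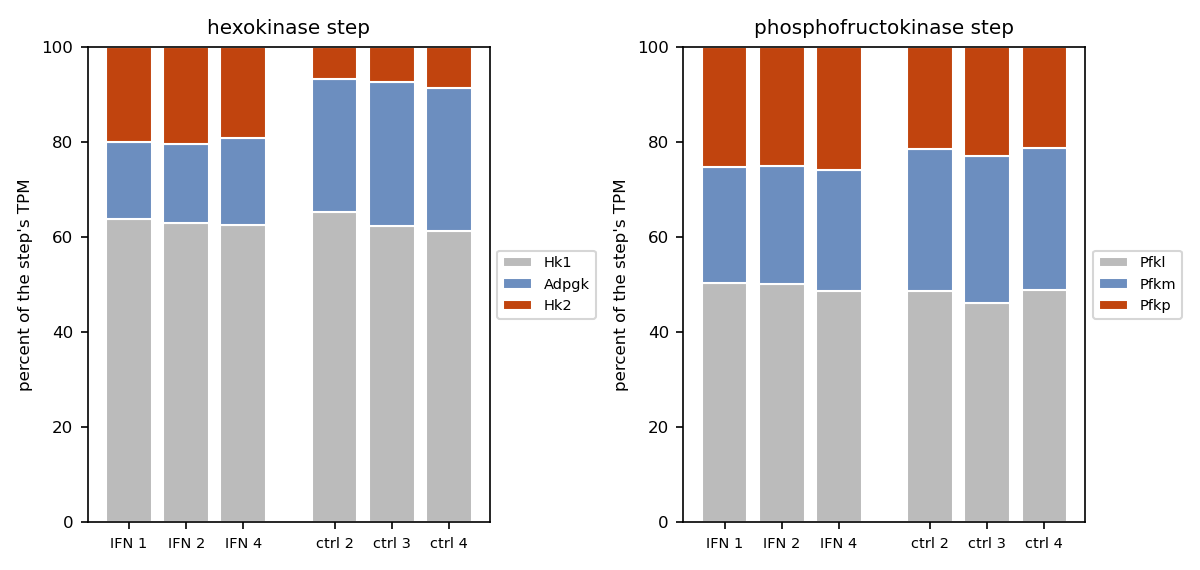
Share of the step's summed TPM held by each isozyme gene in each library, hexokinase on the left and phosphofructokinase on the right; genes that hold under 0.1% of a step are not drawn. Hk2 takes 19.2% to 20.3% in the 3 IFN-gamma libraries and 6.67% to 8.51% in the 3 controls, and Pfkp takes 25.1% to 25.9% with IFN-gamma and 21.3% to 23% in controls.

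The isomerase that follows was not called. Gpi1, which converts glucose 6-phosphate to fructose 6-phosphate, had 458, 448 and 409.9 CPM in the IFN-gamma libraries, against 478, 409.7 and 421 CPM in the controls. The groups overlapped throughout, with a log2 fold change of 0.01 ± 0.084 (adjusted p = 0.93) whose sign changed under 7 of 14 alternatives.

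At phosphofructokinase, the committing step, 2 of 3 subunit genes rose, where 19.9% of all tested genes rose. Pfkl, the liver-type subunit, had 301, 299.9 and 265 CPM in the IFN-gamma libraries, against 249.7, 219 and 241 CPM in the controls, and the fold change was 0.29 ± 0.083 in log2 (adjusted p = 0.00062). Pfkp, the platelet-type subunit, averaged 133 ± 3.25 CPM with IFN-gamma and 97.8 ± 1.77 CPM in controls, with no overlap, and rose by 0.44 ± 0.026 (adjusted p = 3.86e-07). Pfkm, the muscle-type subunit, averaged 108 ± 3.69 CPM with IFN-gamma and 112 ± 3.08 CPM in controls and was not called (adjusted p = 0.491). In TPM the share of Pfkm was 24.9 ± 0.53% with IFN-gamma and 30.3 ± 0.6% in controls, and that of Pfkp 25.4 ± 0.46% with IFN-gamma and 21.9 ± 0.94% in controls. Both shares separated the groups, and the share of Pfkl did not.

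Pfkfb3, whose product makes fructose 2,6-bisphosphate, the activator of phosphofructokinase, was not called. It had 28.6, 32.04 and 29.6 CPM in the IFN-gamma libraries, against 27.7, 27.9 and 28.7 CPM in the controls, with a log2 fold change of 0.10 ± 0.05 (adjusted p = 0.27). Of 5 tested genes that make or break down fructose 2,6-bisphosphate (Pfkfb1 to Pfkfb4 and Tigar), 0 were called in either direction by edgeR, DESeq2 or limma-voom, and 1 had an unadjusted edgeR p under 0.05. Of all tested genes 19.9% rose and 18.1% fell by edgeR. Pfkfb1 came nearest at 0.34 (adjusted p = 0.0719), and it passed without control replicate 4 (adjusted p = 0.0484, in a range up to 0.229).

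**Figure D3:**
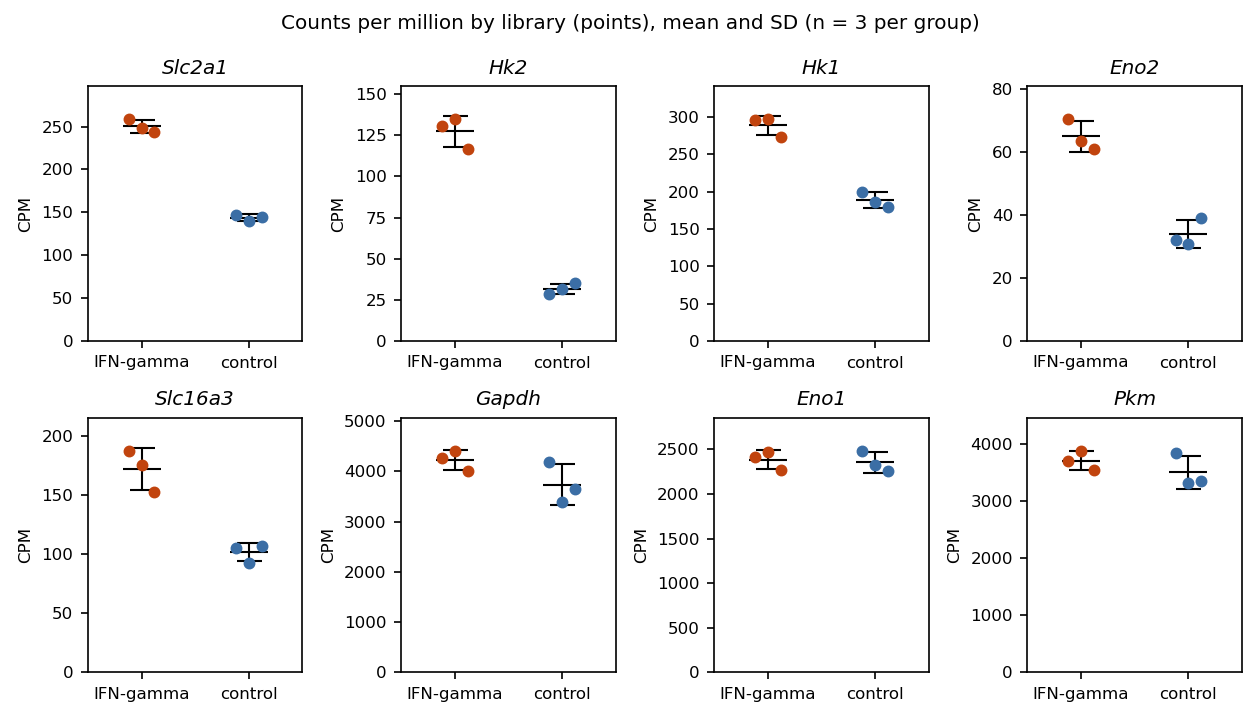
CPM, scaled counts, in each library (points) with mean and SD (n = 3 per group) for 8 members, each on its own axis from 0. Slc2a1, Hk2, Hk1, Eno2 and Slc16a3 separate the groups, whereas Gapdh, Eno1 and Pkm overlap, with control replicate 2 as the highest control of all 3.

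Among the abundant enzymes of the lower pathway, 3 rose by little and their calls were fragile. Aldoa, the main aldolase, had 952, 923 and 844 CPM in the IFN-gamma libraries, against 886, 751 and 773 CPM in the controls. Gapdh, which makes the first NADH of the pathway and ranked 10th of all genes by mean TPM, had 4263, 4409.8 and 4008 CPM in the IFN-gamma libraries, against 4185, 3384 and 3641 CPM in the controls. In both genes control replicate 2 lay within the IFN-gamma range, and the rises of 0.17 ± 0.09 (adjusted p = 0.0312) and 0.18 ± 0.098 (adjusted p = 0.0345) were close to the threshold. Ldha, the muscle-type lactate dehydrogenase subunit gene that makes lactate from pyruvate, had 1623, 1633 and 1622 CPM in the IFN-gamma libraries, against 1579.5, 1392 and 1410.4 CPM in the controls. Its libraries separated, by 0.15 ± 0.058 in log2 (adjusted p = 0.0272). The calls of these 3 genes were lost under 7 of 14 alternatives: upper-quartile and total-count scaling, the replicate block, and leaving out IFN-gamma replicate 1 or 2 or control replicate 3 or 4. Their adjusted p reached 0.263 for Aldoa, 0.284 for Gapdh and 0.199 for Ldha, and their direction held in all 14.

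Tpi1, Pgk1 and Pgam1, which lie between aldolase and enolase, rose with little spread between libraries. Tpi1, triose phosphate isomerase, had 1109, 1093 and 1052 CPM in the IFN-gamma libraries, against 869, 834 and 826 CPM in the controls. Pgk1, which makes the first ATP of the lower pathway, had 2043, 1969 and 1992 CPM in the IFN-gamma libraries, against 1723, 1639 and 1635 CPM in the controls. Pgam1, phosphoglycerate mutase, had 1842, 1848 and 1819 CPM in the IFN-gamma libraries, against 1521, 1551 and 1539 CPM in the controls. Every IFN-gamma library was above every control for the 3 genes. Log2 fold changes were 0.36 ± 0.032 for Tpi1, 0.27 ± 0.029 for Pgk1 and 0.26 ± 0.011 for Pgam1, with adjusted p of 3.88e-06, 0.000167 and 0.000163, and all 3 calls held under all 14 alternatives.

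The genes that make and remove 2,3-bisphosphoglycerate moved apart. Bpgm, which makes it, averaged 27.6 ± 2.21 CPM with IFN-gamma and 21.6 ± 1.21 CPM in controls, a rise of 0.35 ± 0.081 (adjusted p = 0.000887). Minpp1, a phosphatase that can remove it, had 83.6, 87.6 and 86.6 CPM in the IFN-gamma libraries, against 97.7, 95.5 and 91.4 CPM in the controls. It was lower in each IFN-gamma library, with a log2 fold change of -0.14 ± 0.035 (adjusted p = 0.0376). That call was lost without IFN-gamma replicate 1 or 2 and without control replicate 2 or 3 (adjusted p = 0.0979, 0.0702, 0.105 and 0.0714), in a range of 0.00244 to 0.184 over the alternatives.

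At enolase, which makes phosphoenolpyruvate, the dominant gene was not called and 2 of its minor relatives moved in opposite directions. Eno1 had 2418, 2465 and 2263 CPM in the IFN-gamma libraries, against 2484, 2319 and 2260.2 CPM in the controls, with overlap and a log2 fold change of 0.02 ± 0.055 (adjusted p = 0.834). Eno2, the neuronal-type enolase (Gene ID 13807), had 70.5, 63.6 and 60.98 CPM in the IFN-gamma libraries, against 32.1, 30.9 and 39.1 CPM in the controls. Each IFN-gamma library stood well above each control, by 0.93 ± 0.12 (adjusted p = 3.72e-09). Eno3, the muscle-type enolase, averaged 79.1 ± 2.02 CPM with IFN-gamma and 99.3 ± 3.82 CPM in controls and fell, with a log2 fold change of -0.33 ± 0.038 (adjusted p = 4.35e-05). The counts of Eno1 and of its near-identical copy Eno1b were not whole numbers in the tables, so reads were divided between similar genes and their values are uncertain. In TPM Eno2 made 1.59 ± 0.091% of the step with IFN-gamma and 0.857 ± 0.15% in controls, and Eno1 made 94.5 ± 0.36% with IFN-gamma and 94.3 ± 0.17% in controls.

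Pyruvate kinase did not pass. Pkm, which makes pyruvate and the second ATP, had 3709, 3887 and 3545 CPM in the IFN-gamma libraries, against 3848, 3329 and 3356 CPM in the controls, with control replicate 2 among the IFN-gamma libraries. Its log2 fold change was 0.08 ± 0.078 (adjusted p = 0.298), and it passed when control replicate 2 was left out (log2 fold change 0.15, adjusted p = 0.0271). Gene-level counts do not separate the Pkm1 and Pkm2 splice forms.

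Lactate export, held here by 1 member, closed the pathway with a clear rise, while Slc16a1, a lactate transporter outside the members, fell. Slc16a3 (Gene ID 80879), the monocarboxylate transporter MCT4 of lactate-exporting cells, had 188, 176 and 153 CPM in the IFN-gamma libraries, against 105, 92.8 and 107 CPM in the controls. IFN-gamma libraries varied more than controls but did not meet them, and the log2 fold change was 0.76 ± 0.11 (adjusted p = 1.13e-08). The level of Ldhb, whose subunit favours the reverse reaction, was 7 counts summed over the IFN-gamma libraries and 20 over the controls, too low to test.

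**Figure D4:**
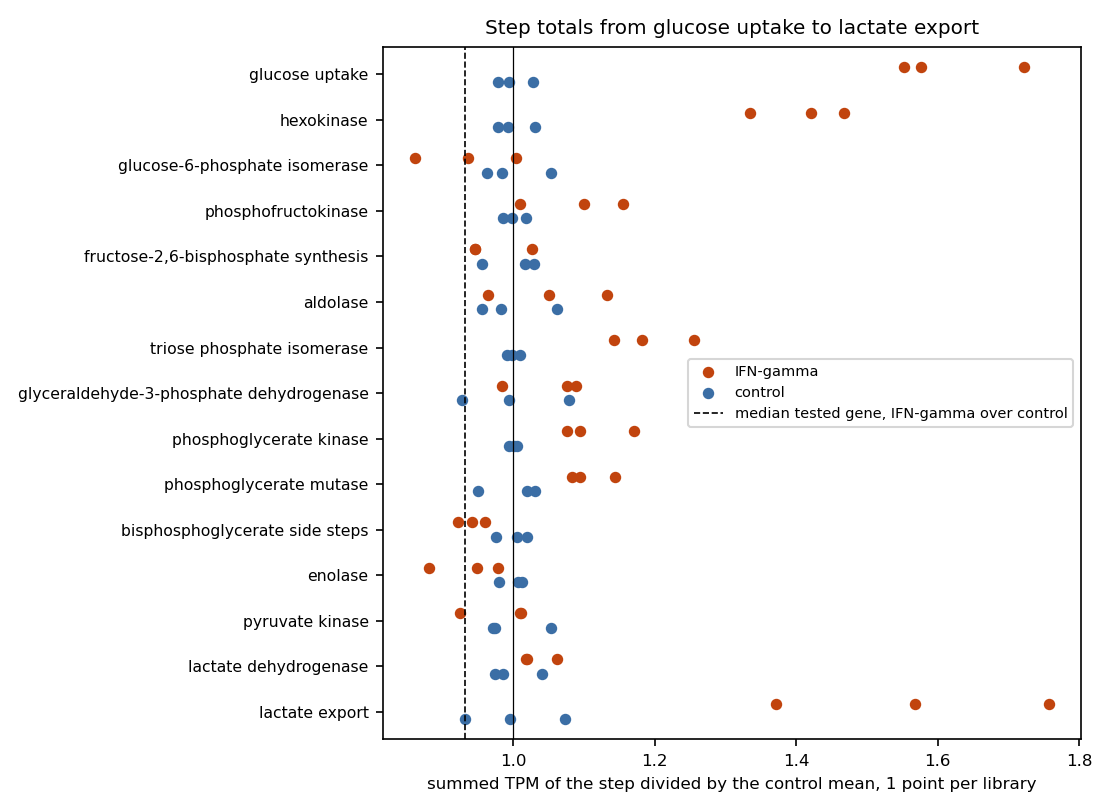
Summed TPM of all isozymes of each step in each library, divided by the control mean of that step; the dashed line at 0.932 is the ratio of the median tested gene. Uptake, hexokinase and lactate export (Slc16a3 alone) lie at ratios of 1.62, 1.41 and 1.57, and the steps between them at 0.934 to 1.19.

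Glucose uptake and hexokinase, each summed over its genes, were higher in every IFN-gamma library than in every control. So was lactate export, which is Slc16a3 alone, whereas the enolase step, in which Eno2 is a minor part, was not. The lactate export step leaves out Slc16a1, not a member, at 62.6 ± 3.91 TPM with IFN-gamma and 83.6 ± 3.89 TPM in controls. TPM sums within a library to a fixed total, and the median tested gene had a TPM ratio of 0.932 between IFN-gamma and control, so step ratios are read against that value and were not tested. Glucose uptake summed to 169 ± 9.66 TPM with IFN-gamma and 105 ± 2.65 TPM in controls, hexokinase to 187 ± 8.99 TPM with IFN-gamma and 133 ± 3.61 TPM in controls, and lactate export to 119 ± 14.7 TPM with IFN-gamma and 76.3 ± 5.38 TPM in controls. Those were also the least abundant steps on the direct path: glyceraldehyde-3-phosphate dehydrogenase summed to 5612 ± 306 TPM with IFN-gamma and 5346 ± 405 TPM in controls. Of 19 steps and branches 7 had every IFN-gamma library above every control, 3 had every one below (bisphosphoglycerate side steps, enolase and pyruvate dehydrogenase), and 9 overlapped. Of all tested genes 24.7% were separated upward and 23.3% downward, counted in CPM and not in TPM. Some steps hold 1 gene alone. After rescaling each library to the median tested gene, an alternative chosen after seeing the data, 9 steps were higher, 0 lower and 10 overlapped: phosphofructokinase (1.17) and lactate dehydrogenase (1.11) joined the higher steps, and enolase (1.00) and pyruvate dehydrogenase (0.981) overlapped. All members together took 2.13 ± 0.094% of TPM with IFN-gamma and 2.05 ± 0.056% in controls, with overlap.

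Libraries of a group differed in a shared way over these genes. Control replicate 2 was the highest control for 15 of the 25 tested members from uptake to export (it was so for 35.6% of all tested genes), and IFN-gamma replicate 4 was the lowest of its group for 17 of 25 (38.7% of all tested genes). Gpi1, Gapdh, Eno1, Eno1b and a locus named LOC115487111 had estimated counts that were not whole, as when reads are divided between similar sequences, and are uncertain to that extent. LOC115487111, at 14.9, 4.13 and 6.36 CPM with IFN-gamma and 9.84, 13.3 and 9.29 CPM in controls, had no call (adjusted p = 0.664) but passed without IFN-gamma replicate 1 (log2 fold change -1.06, adjusted p = 6.24e-05), so 1 library decides its value.

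Past pyruvate, no gene of the pyruvate dehydrogenase complex was called. Pdha1, the catalytic subunit gene, had 239, 236 and 249.5 CPM in the IFN-gamma libraries, against 239, 246 and 232 CPM in the controls, with a log2 fold change of 0.02 ± 0.034 (adjusted p = 0.832). Pdhb, Dld and Dlat had log2 fold changes of -0.06, 0.00 and -0.10, and adjusted p of 0.385, 0.998 and 0.158. Dlat was lower in each IFN-gamma library, and it fell past the threshold under upper-quartile and total-count scaling (adjusted p = 0.028 and 0.0152). Pdhb did so under total counts (adjusted p = 0.0499), so 2 of the 4 genes fell under that scaling. There 3124 of all 11423 tested genes fell, and the median log2 fold change of all tested genes was -0.06.

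Calls among the genes around the complex were near the share of all genes. Of 8 kinases, phosphatases and partners of pyruvate dehydrogenase 2 rose and 2 fell, 25% in each direction, against 19.9% risen and 18.1% fallen of all tested genes. Pdk1, a kinase that switches the complex off, had 74.4, 67.1 and 69.9 CPM in the IFN-gamma libraries, against 43.1, 41.1 and 40.5 CPM in the controls, a rise of 0.76 ± 0.051 (adjusted p = 1.32e-09). Pdk3, another such kinase, rose by 0.26 ± 0.029 (adjusted p = 0.00049). Pdp1 and Pdpr, a phosphatase that switches the complex on and a regulatory subunit of it, fell by 0.31 and 0.21 in log2 (adjusted p = 0.00995 and 0.0121). Without IFN-gamma replicate 2 both calls were lost. That of Pdpr was also lost without control replicate 4, and that of Pdp1 with the replicate block (adjusted p = 0.0593). Adjusted p was at most 0.0716 for Pdp1 and 0.07 for Pdpr over the alternatives. Of 6 tested genes of lactate and pyruvate transport 3 rose (50%, against 19.9% of all tested genes) and 1 fell (16.7%, against 18.1%). While Slc16a3 rose, Slc16a1, the transporter MCT1 that carries lactate both ways, had 174, 162 and 177 CPM in the IFN-gamma libraries, against 209.7, 215 and 210.3 CPM in the controls, and fell, with a log2 fold change of -0.31 ± 0.041 (adjusted p = 5.4e-05). Bsg, the chaperone of both transporters, rose by 0.18 ± 0.039 (adjusted p = 0.00644), a call lost without control replicate 4, and Mpc2, a subunit of the mitochondrial pyruvate carrier, by 0.20 ± 0.08 (adjusted p = 0.0422), a call lost without IFN-gamma replicate 2 or control replicate 3 or 4. Their adjusted p reached 0.07 and 0.208, upper-quartile and total-count scaling ended both calls, and DESeq2 (adjusted p = 0.106) and the replicate block (adjusted p = 0.0923) ended that of Mpc2.

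Among 9 tested glucose transporters and their regulators 5 rose and 2 fell, 55.6% and 22.2%, against 19.9% and 18.1% of all tested genes; 2 of the 5 are the members Slc2a1 and Slc2a3. Beside Slc2a1 and Slc2a3, Txnip, which promotes removal of glucose transporters from the cell surface, had 63.6, 62.4 and 60.5 CPM in the IFN-gamma libraries, against 17.97, 17.6 and 17.6 CPM in the controls, a rise of 1.81 ± 0.023 (adjusted p = 8.86e-16). Tbc1d4, a brake on transporter traffic to the surface in muscle and fat, had 7.9, 7.98 and 9.95 CPM in the IFN-gamma libraries, against 14.9, 15.8 and 15.7 CPM in the controls, and fell, with a log2 fold change of -0.85 ± 0.11 (adjusted p = 6.53e-07). Slc2a6 (0.43, adjusted p = 0.00406), Slc2a9 (0.51, adjusted p = 0.0204) and Tbc1d1 (-0.23, adjusted p = 0.00197) were the other calls, named after their values were seen. Slc2a9 lost its call with DESeq2 (adjusted p = 0.094), with the replicate block, and without IFN-gamma replicate 1 or 4 or control replicate 2 or 3, with adjusted p of 0.00893 to 0.15 over the alternatives.

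In the fit as reported, the pentose phosphate pathway and the TCA cycle held fewer calls than the 19.9% risen and 18.1% fallen of all tested genes. For falls this depends on the scaling. With total counts 3 of 8 and 4 of 16 genes fell, where 3124 of all 11423 tested genes fell. With upper-quartile factors 1 and 3 fell, where 2823 of all tested genes did. In the pentose phosphate pathway 0 of 8 tested genes were called by edgeR, DESeq2 or limma-voom (1 at an unadjusted edgeR p under 0.05), with a median log2 fold change of 0.08. Rpe, an epimerase of that pathway, passed as a rise with no filter (adjusted p = 0.0494), with the replicate block (0.0254) and without IFN-gamma replicate 2 (0.0289). In the TCA cycle 0 of 16 rose, also at an unadjusted p under 0.05 and by DESeq2 and limma-voom, and 1 fell, Idh3a at -0.16 ± 0.06 (adjusted p = 0.0301), a call lost without IFN-gamma replicate 1 or 2 or control replicate 3 or 4, with adjusted p up to 0.311. Sucla2, a gene of that list, passed as a rise with the replicate block (edgeR adjusted p = 0.0427). Of 12 tested glycogen genes 3 rose, 25% against 19.9% of all tested genes, and 0 fell by edgeR, DESeq2 or limma-voom or at an unadjusted p under 0.05. Gys1, the glycogen synthase of non-liver tissues, had 63.5, 54.5 and 54.2 CPM in the IFN-gamma libraries, against 34.9, 32.9 and 35.7 CPM in the controls, a rise of 0.73 ± 0.083 (adjusted p = 2.11e-08). Ugp2 and Gbe1, which make UDP-glucose and branch glycogen, rose by 0.24 and 0.26 in log2 (adjusted p = 0.0157 and 0.0154). Both calls were lost without IFN-gamma replicate 4, that of Ugp2 also without control replicate 2 and that of Gbe1 without control replicate 3, and adjusted p reached 0.102 and 0.0877. Upper-quartile scaling (adjusted p = 0.0504 and 0.0512) and total-count scaling (0.084 and 0.0715) also ended both calls.

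A list of HIF-1 and its regulators and targets outside glycolysis held the highest share of calls among the related lists: of 19 tested genes 14 rose (73.7%, against 19.9% of all tested genes) and 1 fell (5.26%, against 18.1%), with a median log2 fold change of 0.40. Hif1a, the oxygen-regulated subunit, had 204, 203 and 236 CPM in the IFN-gamma libraries, against 101, 115 and 106 CPM in the controls, a rise of 1.00 ± 0.089 (adjusted p = 3.18e-11). Bnip3, a mitophagy receptor, had 140.5, 133 and 149 CPM in the IFN-gamma libraries, against 42.01, 40.5 and 44.4 CPM in the controls, and rose by 1.73 ± 0.061 (adjusted p = 6.26e-16). Ndrg1, a stress-responsive gene, rose by 1.07 ± 0.079 (adjusted p = 3.92e-12), and Ero1l, an oxidase of protein folding, by 0.53 ± 0.063 (adjusted p = 1.25e-07). Those 4 calls held under all 14 alternatives. Among the other risen genes were the regulators Vhl and Egln2, so the count mixes regulators with targets. Egln2 lost its call with the replicate block and without control replicate 3, and P4ha2 lost its call under 8 of 14 alternatives. Car9 and Egln3 were not called, and Egln3 fell under total counts (adjusted p = 0.0473). These 5 genes were picked out after their values were seen. Vegfa, an angiogenic growth factor and a well-known target, fell, at -0.25 ± 0.073 (adjusted p = 0.00208), and was named after its values were seen. The list was written with knowledge of earlier results of these data, and no link between it and the glycolysis genes was tested.

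**Figure D5:**
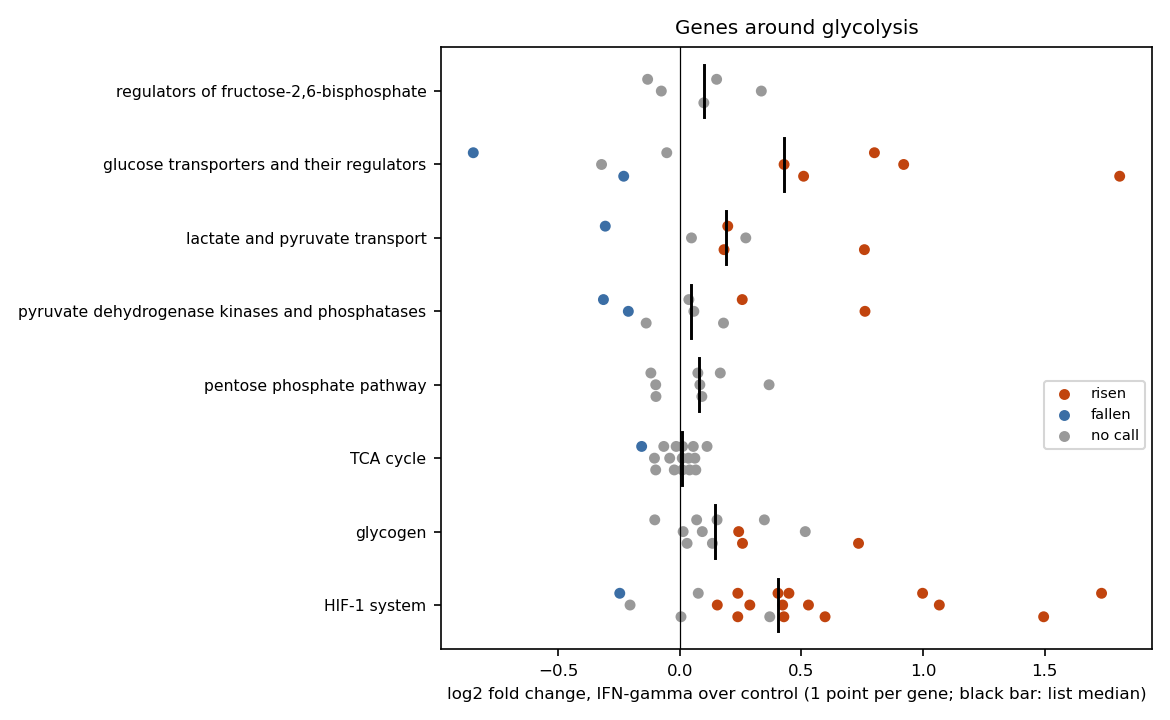
Log2 fold change of each tested gene of 8 lists around glycolysis, IFN-gamma over control, 1 point per gene, coloured by call, with the list median as a black bar. The HIF-1 list has its median at 0.40 and 14 of 19 genes risen, and the TCA cycle list has its median at 0.01 and 0 of 16 risen.

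The remaining members lay on side branches, and few were called. Pgm2 (Gene ID 72157), a phosphoglucomutase that links glycogen to glycolysis, had 106, 98.05 and 95.6 CPM in the IFN-gamma libraries, against 80.99, 76.2 and 75.4 CPM in the controls, a rise of 0.37 ± 0.055 (adjusted p = 2.22e-05). Symbols for this pair differ between sources: RefSeq calls that ID Pgm1, and calls the ID 66681, Pgm1 in the tables, Pgm2. That gene, 66681, was higher in each IFN-gamma library and missed the threshold at 0.15 ± 0.044 (adjusted p = 0.0567). Aldh3a1, an aldehyde dehydrogenase abundant in cornea, was the one faller of the aldehyde branch, with 4.17, 3.19 and 3.47 CPM in the IFN-gamma libraries, against 5.58, 6.02 and 4.64 CPM in the controls, and fell, with a log2 fold change of -0.58 ± 0.16 (adjusted p = 0.00354). Akr1a1, an aldehyde reductase and the most abundant gene of that branch, had 481, 480.2 and 469 CPM in the IFN-gamma libraries, against 460.1, 429.8 and 425 CPM in the controls. Its groups were apart by a narrow margin at 0.12 ± 0.038 (adjusted p = 0.0625), and it passed without IFN-gamma replicate 4 (adjusted p = 0.0401) and without control replicate 2 (adjusted p = 0.0217), in a range of 0.0217 to 0.443. The other 8 tested genes of the branch (Acss2, Adh5, Adh7, Aldh2, Aldh3a2, Aldh3b1, Aldh7a1 and Aldh9a1) ranged from -0.20 to 0.00 in log2 fold change with no call. With total counts Aldh7a1 (adjusted p = 0.0204), Adh5 (0.0473) and Aldh3b1 (0.0289) fell as well, and with upper-quartile factors Aldh7a1 (0.0399) and Aldh3b1 (0.0484). Without control replicate 4 Aldh3b1 also passed (0.0468).

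Of the gluconeogenic genes, Pck2, the mitochondrial carboxykinase that makes phosphoenolpyruvate, had 43.8, 45.9 and 38.8 CPM in the IFN-gamma libraries, against 43.98, 42.1 and 40.9 CPM in the controls, with overlap (adjusted p = 0.857), and G6pc3, a glucose-6-phosphatase of many tissues, was at -0.13 (adjusted p = 0.382). Galm (0.02), Aldoc (0.13) and Eno1b (0.04) were also not called. The 7 members under the filter on low counts included Hkdc1, Eno4, Pklr, Ldhb, Ldhal6b and Adh1, of which Pklr, the liver and red cell pyruvate kinase, had 0 counts in all 3 IFN-gamma libraries and 1 count over the controls. Every gene in the tables had a count in at least 1 control library, whereas 673 had none in any IFN-gamma library, so genes with counts in IFN-gamma libraries alone were not analysed here.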

How the data were processed

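Libraries of 6 RNA samples were read on a DNBSEQ machine (labels' protocols). Per the submitters' processing notes, HISAT and HISAT2 were among the tools and mm10 and GRCm38.p6 the builds; which program counted reads is not stated there. The authors deposited estimated counts per gene (6.8% to 7.37% of values per library not whole), and, per the file headers, TPM and FPKM. Members and lists were chosen with earlier results of these data known. The values of 1 member with too few counts to test are not reported here.

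After rounding, counts went into edgeR 4.0.16 under R 4.3.3 (TMM, filterByExpr with minimum count 10, glmQLFit with robust=TRUE, Benjamini-Hochberg over 11423 genes, threshold 0.05), and the code was tested on simulated data. TMM factors were 0.972 to 0.982 with IFN-gamma and 1.02 to 1.03 in controls. CPM use effective library sizes. Standard errors come from log2 CPM (prior count 2), not from the fit. Step totals are sums of the deposited TPM, with no test; Bpgm and Minpp1 were summed apart from the mutase. Named in full are the 4 added genes, the most abundant tested gene of each step, members called with a log2 change of at least 0.5 in size, and up to 4 called genes of smallest p per related list; other names were chosen after values were seen.

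Alternatives were RLE, upper-quartile and total-count scaling, DESeq2 1.42.0, limma-voom (limma 3.58.1), no filter, at least 1 CPM in 3 samples, rounding down, a threshold of 0.01, a replicate block, each library left out, and FPKM for step totals.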

Additional observations from a re-analysis of the deposited data

How the results depend on the processing

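Over 14 alternative fits 15 of the 20 called members kept call and direction, and no called result changed sign. The count of members fallen, 4 as reported, was 7 with upper-quartile factors, 9 with total counts and 2 at an adjusted p under 0.01; with each library left out it ran from 2 to 5 (2 without control replicate 3), and members risen ran from 13 to 18. Upper-quartile and total-count scaling moved the median of all tested genes from 0.01 to -0.04 and -0.06 in log2, and that of the tested members from 0.02 to -0.03 and -0.05. Total counts also gave 3124 genes fallen in all, against 2069, 4 fallen in the TCA list against 1, 3 in the pentose phosphate list against 0 and 2 in the HIF-1 list against 1; upper-quartile factors gave 3 and 1 in the first 2 of these lists. Under both, 1 gene rose in the lactate transport list against 3, and 1 in the glycogen list against 3. Replicate numbers 2 and 4 occur in both groups, and deviations of same-numbered libraries correlated at 0.13 and -0.09. These 2 values are too few to tell whether the numbers pair the samples. With the replicate block, which leaves 1 residual degree of freedom, 16 members were called (13 risen and 3 fallen) and 3926 genes in all, against 4347. At this depth single-digit counts, as for Hkdc1 and Ldhb, allow no comparison. RNA levels say nothing of protein or flux.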
